A study of Homo sapiens with 30 samples.

Results

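Open chromatin was followed at 3 loci that encode signalling proteins of the interleukin 1 and tumour necrosis factor receptors: IRAK2, TRAF1, and the neighbouring genes BIRC3 and BIRC2. A deposited ATAC-seq peak belonged to a locus when its summit fell in a window of hg19: chromosome 3 from 10.15 to 10.34 Mb for IRAK2, chromosome 9 from 123.64 to 123.74 Mb for TRAF1, and chromosome 11 from 102.13 to 102.27 Mb for BIRC3 and BIRC2. Of 3137748 deposited summits, 1402 lay in these windows: 742 at IRAK2, 295 at TRAF1 and 365 at BIRC3 and BIRC2. The windows held 44 of the 107672 regions, 20 at IRAK2, 11 at TRAF1 and 13 at BIRC3 and BIRC2. Each region reached 250 bp to either side of a summit. Regions were built from the strongest peaks of each library only, so weaker summits could lie outside them. The loci were chosen by the ranks of peaks inside IRAK2 and at the BIRC3 promoter in TNFa-treated against untreated Eahy926 libraries of this series, so the values of that contrast are given below as a description.

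The study profiled 2 human endothelial lines of parental genotype. Eahy926 is an endothelial hybrid line grown in a medium that normally lacks VEGF. TeloHAEC are aortic endothelial cells immortalised with telomerase, grown in an endothelial medium that contains VEGF, so line and medium cannot be told apart. Each line gave 5 groups of 3 libraries, labelled biological replicates: untreated cells prepared on day 0, untreated cells prepared on day 1, and 3 day-1 treatments lasting 24 h. These were IL1b at 10 ng/ml, TNFa at 10 ng/ml and a change in VEGF, which was added to Eahy926 and withheld from TeloHAEC.

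The libraries held 4016678 to 14040011 sequenced tags, and their autosomal peak lists held 49774 to 115794 peaks. To make lists of unequal length comparable, each was ordered by the authors' peak p-value and shortened to its strongest 49774 peaks. The place of a peak in that order (1 is the strongest) was turned into a rank score, log2 of the list length plus 1 divided by the place, or 0 where none of these peaks lay over the region. Places, and counts of libraries with a peak, refer to the shortened lists unless the full deposited list is named, so a region without a peak there can still carry a weaker one in the full list. A change of 1 in score means that a peak stood 2 times nearer the top of the list. A score is thus a standing among all peaks of a library and not a count of reads. The promoters of KDR and TIE1, endothelial receptor genes, carried a strong peak in 15 and 15 of the 15 Eahy926 libraries and in 15 and 14 of the 15 TeloHAEC libraries. Those of CDH5 and ROBO4 carried one in 13 and 13 Eahy926 and in 14 and 3 TeloHAEC libraries. Those of TEK, CLDN5 and VWF carried one in 2, 0 and 0 Eahy926 and in 2, 3 and 1 TeloHAEC libraries, and that of PECAM1 in 0 of either line, so several genes of this list were mostly without a strong peak. Of the epithelial promoters, 5 of 6 were without a strong peak in every library, as were 5 of 5 blood cell promoters.

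IRAK2 is a kinase-like protein that is recruited through MYD88 to the interleukin 1 receptor and passes the signal to TRAF6. TRAF1 is an adaptor of the TNF receptor family and is known as a target gene of NF-kB. BIRC3 (cIAP2) and BIRC2 (cIAP1) are ubiquitin ligases held in the TNF receptor complex by TRAF2, where their ubiquitin chains recruit the kinases that activate NF-kB and restrain cell death. BIRC3 is a textbook NF-kB target, whereas BIRC2 is expressed in most cells.

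BIRC3 and BIRC2 lie side by side, and the sequences of both promoters are shown. They are from RefSeq on GRCh38.p14, plus strand, at chr11:102317234-102317483 for the 250 bases before the BIRC3 start and chr11:102346964-102347216 for BIRC2, which ends 3 bases past its first start. Capitals mark matches to the kappaB consensus in BIRC3 and to the cyclic AMP response element (CRE), TGACGTCA, in BIRC2, searched on both strands.
BIRC3: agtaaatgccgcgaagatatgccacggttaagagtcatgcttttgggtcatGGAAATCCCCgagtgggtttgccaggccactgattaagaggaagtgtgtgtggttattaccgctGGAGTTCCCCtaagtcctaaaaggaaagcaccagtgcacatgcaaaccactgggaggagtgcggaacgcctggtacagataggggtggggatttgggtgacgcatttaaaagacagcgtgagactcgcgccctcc
BIRC2: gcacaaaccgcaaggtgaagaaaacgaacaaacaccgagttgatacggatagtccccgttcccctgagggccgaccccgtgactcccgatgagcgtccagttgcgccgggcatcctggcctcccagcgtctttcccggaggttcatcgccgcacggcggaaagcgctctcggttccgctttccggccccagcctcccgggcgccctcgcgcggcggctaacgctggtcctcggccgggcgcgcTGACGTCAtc
The BIRC3 promoter held 2 kappaB matches, GGAAATCCCC beginning 199 bases before the start and GGAGTTCCCC beginning 135 bases before it. Of 33725 autosomal promoters of 300 bp, 11.3% held at least 1 kappaB match and 2.06% held 2 or more. No kappaB match was found in the 300 bp at the IRAK2 start, at any of the 3 TRAF1 starts or at either of the 2 BIRC2 starts, which says only that these letters are not in those windows. The single CRE match of BIRC2 began 7 bases before its first start, and 1.87% of promoters held a CRE. None of these promoters held a match to the AP-1 motif TGANTCA, found in 7.67% of promoters. The promoters of IRAK2 and BIRC2 were rich in G and C, at 72.0% and 68.7% at the first start, against 53.3% at BIRC3. Matches are descriptions of sequence and not evidence of binding.

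In the names used here, a number in kilobases (kb) is the distance of a region's centre from the start of the member gene in its window, positive downstream. The IRAK2 window was the most densely occupied: it held 15 to 29 summits per Eahy926 library (median 26) and 18 to 30 per TeloHAEC library (median 25). TRAF1 held 6 to 10 (median 8) in Eahy926 and 9 to 15 (median 12) in TeloHAEC, and the BIRC3 and BIRC2 window 8 to 15 (median 12) and 8 to 16 (median 13). In the full lists 19 of the 44 regions had a peak in all 30 libraries, 12 in the IRAK2 window, 4 in that of TRAF1 and 3 in that of BIRC3 and BIRC2. In the shortened lists 10 did, 8 at IRAK2, 2 at TRAF1 and 0 at BIRC3 and BIRC2. Within the gene bodies lay 11 of the 20 regions at IRAK2, 3 of 11 at TRAF1 and 1 of 13 at BIRC3 and BIRC2. Exons and introns were not resolved here.

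The element within IRAK2 with the best median place was IRAK2 +41.0 kb, at 3834 over 30 libraries, and its best place was 244. In TRAF1 the region 36.2 kb downstream of the start, beyond the end of the gene, was the strongest, with a median place of 8573. The BIRC3 side of its window held weaker elements: upstream of the promoter, BIRC3 −29.3 kb was the most regular, with a peak in 14 of 15 shortened lists of each line, in all 30 full lists, and a median place of 26710. The regions at −48.7, −40.4 and −23.3 kb had peaks in 7, 14 and 15 shortened and 20, 23 and 23 full lists. Those at −47.3 and −7.1 kb had one in 2 shortened lists each and in 3 and 2 full lists.

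**Figure D1:**
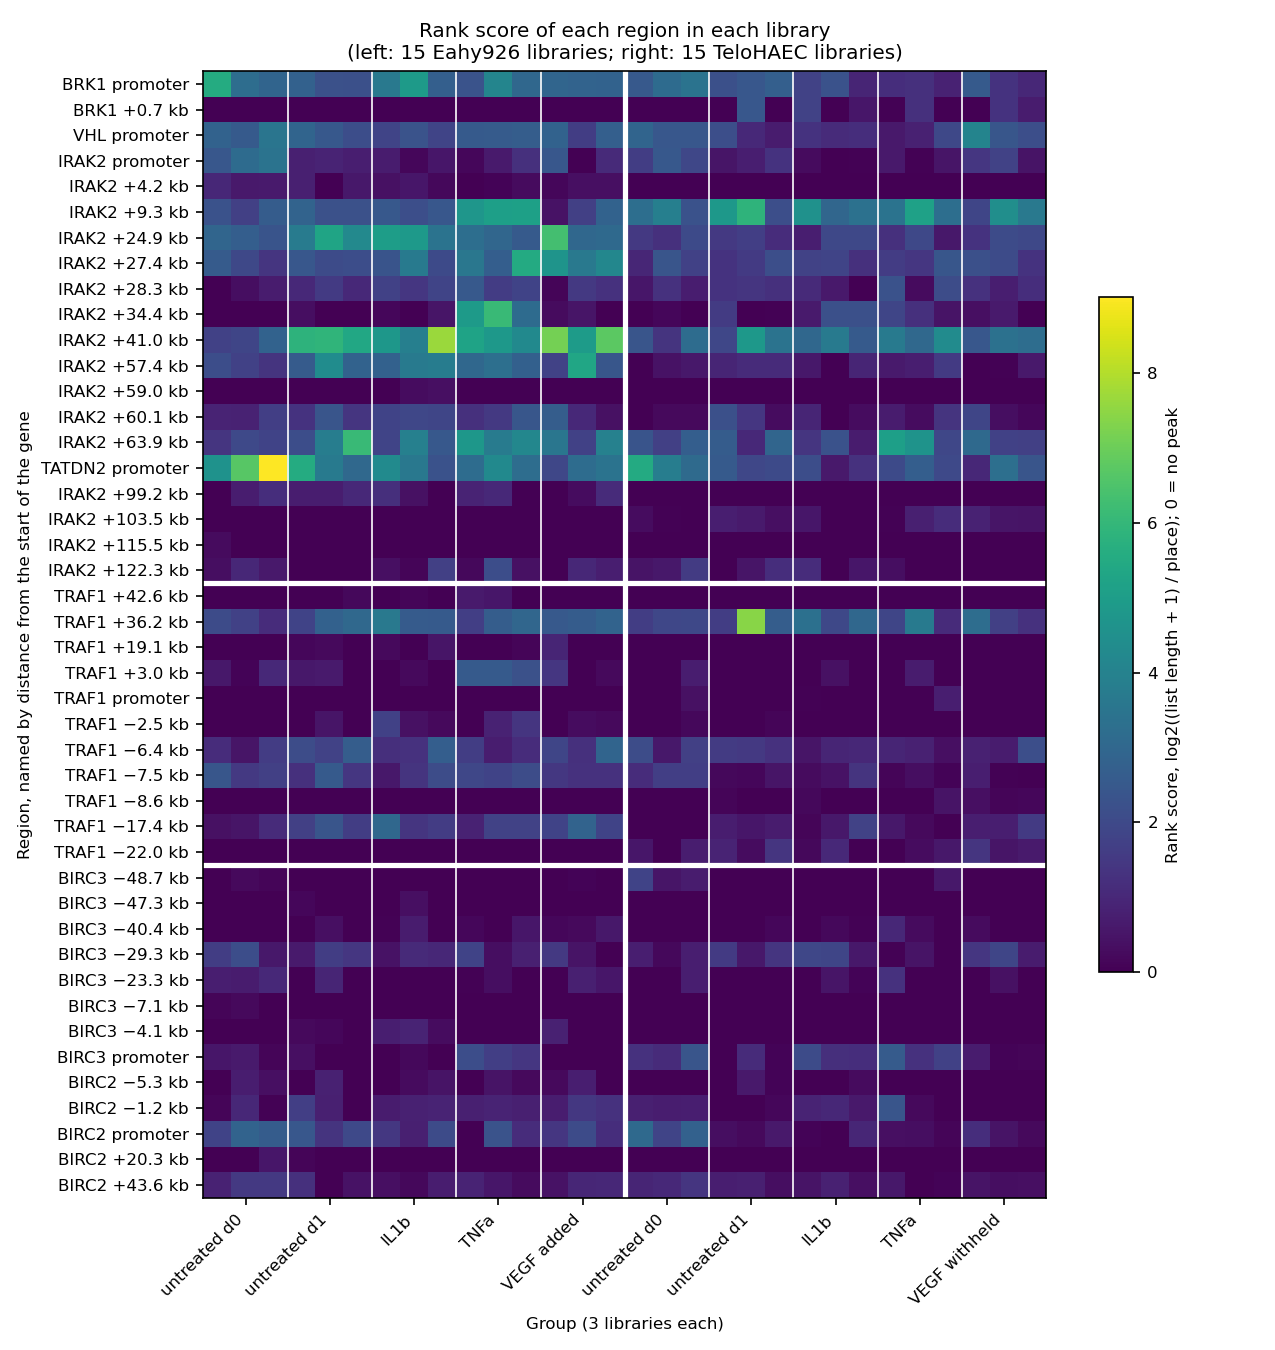
Rank score (colour, log2 scale, 0 where a library has no peak among its strongest 49774) of the 44 regions (rows, by locus) in the 30 libraries (columns, 3 per group, Eahy926 left and TeloHAEC right). The IRAK2 window holds most of the high scores; IRAK2 +34.4 kb, TRAF1 +3.0 kb and the BIRC3 promoter are brightest in Eahy926 in the 3 TNFa libraries.

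The element that stood out with TNFa in Eahy926 lay inside IRAK2, 34.4 kb downstream of its start (chr3:10240659-10241159). In the 3 TNFa libraries its peak held places 1671, 711 and 5638. The day-1 control peak held place 39701 in library 1, and libraries 2 and 3 had no peak among their strongest 49774. The day-0 controls had none among theirs, and their full lists held weak peaks at 65580 and 79373 in libraries 1 and 3. All 3 TNFa libraries stood far above every other Eahy926 library at this element. IL1b libraries 1 and 3 placed it at 44116 and 34932 with none in library 2 even in the full list, and the VEGF libraries at 41211, 34807 and 48934. The scores were 4.90, 6.13 and 3.14 with TNFa, a mean of 4.72, and averaged 0.11 ± 0.19 (SD, n = 3) in the day-1 controls, a difference of 4.61. In the TNFa libraries the peaks were 623, 498 and 532 bp wide with deposited pileups of 36, 32 and 23 reads at the summit. The day-1 control peaks in the full lists were 309, 265 and 279 bp wide with pileups of 11, 7 and 8.

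In TeloHAEC the same element ranked lower with TNFa than in Eahy926, with a mean score of 1.20 against 4.72. Its mean score was higher than in Eahy926 in the day-1 controls, 0.53 against 0.11, and with IL1b, 1.70 against 0.23. The day-1 controls placed it at 16974 and 48268 in libraries 1 and 3 and at 62034 in the full list of library 2. The day-0 controls had it among the strongest 49774 in library 2 alone, at 45108. With IL1b it held places 31388, 10793 and 10709, and with TNFa 13426, 20942 and 35899. The library without VEGF that ranked it highest had it at 31303, the next at 38661, and the third at 54908 in its full list. Treated and control ranges overlapped, since control library 1 placed the peak above 1 of the IL1b and 2 of the TNFa libraries. The change was 1.16 ± 0.57 (SE, limma, adjusted p = 0.503) with IL1b and 0.67 ± 0.57 (adjusted p = 0.802) with TNFa, and neither passed the test. The full lists held a peak here in 15 of 15 TeloHAEC and 13 of 15 Eahy926 libraries.

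**Figure D2:**
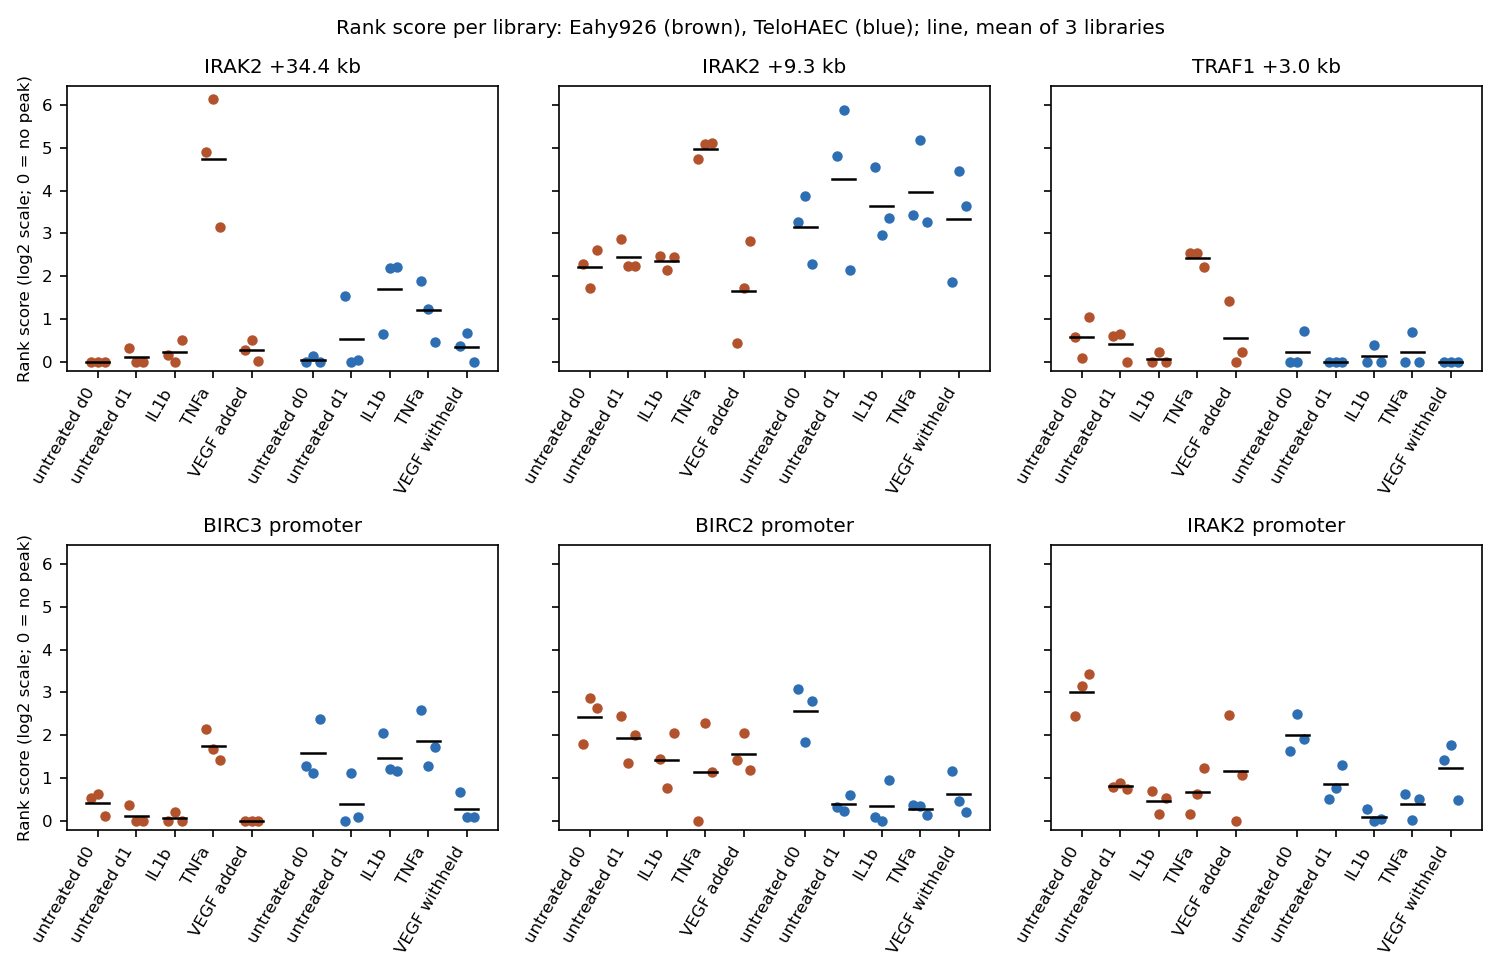
Rank score (y axis, log2 scale, 0 for no peak among the strongest 49774) per library in the 10 groups (x axis) at 6 regions; points are libraries, lines are means of 3. At IRAK2 +34.4 kb the 3 Eahy926 TNFa libraries stand at the top, whereas at IRAK2 +9.3 kb 3 TeloHAEC libraries, 2 of them untreated, reach the range of TNFa-treated Eahy926.

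A second intragenic element, IRAK2 +9.3 kb (chr3:10215568-10216068), was open in all 30 libraries. In Eahy926 it held places 6816, 10468 and 10610 in the day-1 controls and 1874, 1468 and 1437 with TNFa. IL1b gave 8909, 11173 and 9161, and added VEGF 36762, 15136 and 7003. The TNFa libraries were again the 3 highest of the line, with a mean score of 4.98 ± 0.21 (SD, n = 3) against 2.45 ± 0.36 (SD, n = 3) in controls. In untreated TeloHAEC the element varied widely: day-1 controls had it at 1793, 844 and 11212, and day-0 controls at 5141, 3384 and 10272, a mean score of 3.14 ± 0.81 (SD, n = 3). Of these 6 libraries, 2 reached the range of TNFa-treated Eahy926 and the other 4 stood below it. TeloHAEC TNFa libraries had it at 4624, 1384 and 5179. The change with TNFa in TeloHAEC was −0.32 ± 1.03 (SE, limma, adjusted p = 0.961) and with IL1b −0.65 ± 1.03 (adjusted p = 0.910). Neither passed the test, and the standard errors show how widely the TeloHAEC libraries varied here.

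The next element, IRAK2 +27.4 kb, also ranked higher in TNFa-treated Eahy926, at 4222, 7693 and 1099 against 9137, 12042 and 11244 in day-1 controls. Libraries with added VEGF placed it at 1973, 3956 and 2755, nearer the top than any control. This VEGF change of 1.95 ± 0.72 (SE, limma, n = 3 against 3) had an unadjusted p of 0.0113 and an adjusted p of 0.967. It therefore did not pass the test. In TeloHAEC it held places between 9451 and 21153 in the 12 libraries of day 1. The IRAK2 +24.9 kb element moved the other way with TNFa in Eahy926: its places were 5227, 6372 and 8466 against 3710, 1279 and 2629, with no overlap. The share of all regions with the TNFa libraries below all day-1 controls was not computed, so nothing is read from this separation.

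At the IRAK2 promoter TNFa and control libraries of Eahy926 were not separated. Its peak held places 28735, 26839 and 29495 in the day-1 Eahy926 controls and 44077, 31912 and 20989 with TNFa, so the groups overlapped. In TeloHAEC day-1 controls it held 34662, 29144 and 20083, with IL1b 41151, 48223 and, in the full list of library 2, 50232, and with TNFa 32140, 48547 and 34657. The changes in TeloHAEC were −0.76 ± 0.42 with IL1b (SE, limma, adjusted p = 0.578) and −0.47 ± 0.42 with TNFa (adjusted p = 0.816).

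At TRAF1, which lies on the minus strand, the element that ranked higher with TNFa in Eahy926 was 3.0 kb downstream of the start (chr9:123688230-123688730). Its centre lay 2971 bp from the first RefSeq start, and the second RefSeq start lies 2375 bp downstream of the first. TNFa libraries had it at 8513, 8573 and 10673. Day-1 controls had it at 32885 and 31767 and, in the full list of library 3, at 71353. The IL1b libraries had it at 42111 in library 2 and at 57695 and 55391 in the full lists of the others. Libraries with added VEGF had it at 18436 and 42090 and at 51754 in the full list of library 2. By rank the 3 TNFa libraries were closely grouped and all above the rest of the line, with a mean score of 2.44 ± 0.19 (SD, n = 3) against 0.42 ± 0.36 (SD, n = 3) in day-1 controls. In deposited fold enrichment, 9.25, 8.68 and 8.59 with TNFa, Eahy926 day-0 library 3 overlapped them at 9.1. In TeloHAEC it was found in 3 of 15 shortened lists, at 30317 in day-0 library 3, 37448 in IL1b library 2 and 30657 in TNFa library 2. The full lists held it in 10 of 15. It stood there at 50002 and 61735 in IL1b libraries 1 and 3 and at 59750 in TNFa library 1. Day-0 libraries 1 and 2 had it at 70446 and 66975. Of the day-1 controls only library 2 had it, at 103739, and of the libraries without VEGF only library 3, at 74823. With so few strong peaks it was not tested for treatment in TeloHAEC.

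No Eahy926 library had a peak over the TRAF1 promoter itself, even in the full list. In TeloHAEC 14 of 15 full lists had one, and 3 shortened lists did, at 37442, 47594 and 29509. The other 11 held places from 52720 to 93146. The Eahy926 full lists ended at 49774 to 85525 peaks, from 3577273 to 10524271 kept tags. Places 29509 and 52720 came from TeloHAEC TNFa library 3 and library 1 without VEGF, with 3598755 and 3809718 kept tags. Whether depth bears on the difference between the lines was not tested. Too few strong peaks lay over it for a test. The other TRAF1 regions that changed most with TNFa in Eahy926 were TRAF1 −2.5 kb, which differed by 0.58, where treated and control libraries overlapped, and TRAF1 −6.4 kb, which differed by −1.01. At TRAF1 −6.4 kb the TNFa libraries, at 15896, 29967 and 22691, all stood below the controls, at 11527, 14560 and 7874. Here too the share of all regions with such a separation was not computed.

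The BIRC3 promoter (chr11:102187849-102188349) carried no strong peak in most unstimulated Eahy926 libraries of day 1. TNFa libraries placed it at 11225, 15644 and 18637. Day-1 controls had it at 38435 in library 1 and at 71898 and 55080 in the full lists of libraries 2 and 3. The IL1b libraries had it at 43012 in library 2 and in no other, full lists included. With added VEGF it appeared only in the full list of library 3, at 53595. The day-0 controls had it at 34489, 31954 and 46086. By rank the 3 TNFa libraries were thus the 3 highest of the 15, with a mean score of 1.75 ± 0.37 (SD, n = 3) against 0.12 ± 0.22 (SD, n = 3) in day-1 controls. In deposited fold enrichment, 9.15, 7.61 and 7.07 with TNFa, day-0 library 2 overlapped them at 7.69. With IL1b in Eahy926 the change was −0.05 ± 0.33 (SE, limma, adjusted p = 1.0), and with added VEGF −0.12 ± 0.33 (adjusted p = 0.994). Both contrasts used the same day-1 controls as TNFa.

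In TeloHAEC the BIRC3 promoter ranked higher in cytokine-treated than in most control libraries of day 1. TNFa libraries had it at 8213, 20279 and 14956, and IL1b libraries at 11986, 21414 and 22206. Day-1 controls had it at 22965 and 46600, and at 91528 in the full list of library 1. Libraries without VEGF had it at 30954, 46845 and 46201. All 6 cytokine libraries therefore stood above all 6 day-1 libraries without cytokine, although day-0 controls, at 20576, 22864 and 9533, stood level with them. The share of all regions with this order was not computed. The change was 1.47 ± 0.53 with TNFa (SE, limma, n = 3 against 3, unadjusted p = 0.010, adjusted p = 0.530) and 1.07 ± 0.53 with IL1b (adjusted p = 0.515). Neither passed the test after adjustment over 58694 regions, and both used the same 3 controls. The IL1b change in TeloHAEC minus that in Eahy926 was 1.13 ± 0.56 (adjusted p = 0.634), so a difference between the lines was not shown.

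The strongest summit over the BIRC3 promoter lay 61, 94 and 189 bp before the start in the Eahy926 TNFa libraries. In the day-1 controls of that line it lay 29, 79 and 81 bp before the start, so the groups overlapped. In TeloHAEC it lay 82, 86 and 91 bp before the start with TNFa and 105, 87 and 75 bp before it with IL1b. The TeloHAEC controls had it at 31, 12 and 60 bp on day 1 and at 6, 15 and 65 bp on day 0, and libraries without VEGF at 37, 30 and 27 bp. The cytokine summits of TeloHAEC thus lay farther upstream than the rest of the line, a pattern noticed in these values and not tested. These positions use an hg19 start whose distance to the BIRC2 start differs by 55 bp from that in RefSeq, so they are not set against the kappaB matches printed above.

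The BIRC2 start lies 29785 bp beyond that of BIRC3. A difference between the 2 promoters was not tested, and the BIRC3 ranks with TNFa in Eahy926 were used to choose the loci. The BIRC2 promoter (chr11:102217700-102218200) had a peak in all 15 full lists and in 14 of 15 shortened lists of each line. In Eahy926 day-1 controls it held places 9160, 19578 and 12452 and with IL1b 18210, 29040 and 11962. TNFa libraries 2 and 3 had it at 10178 and 22689. In TNFa library 1 the caller split the promoter into a peak of 383 bp with its summit 468 bp before the start and a weaker one of 336 bp over the start, which fell below the strongest 49774. The mean TNFa difference of −0.79 rests largely on that library and was −0.22 without it. In TeloHAEC the BIRC2 promoter held 39398, 42534 and 32833 in day-1 controls and 38301, 39289 and 45177 with TNFa, a change of −0.10 ± 0.32 (SE, limma, adjusted p = 0.961). With IL1b the change was −0.03 ± 0.32 (adjusted p = 0.993).

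**Figure D3:**
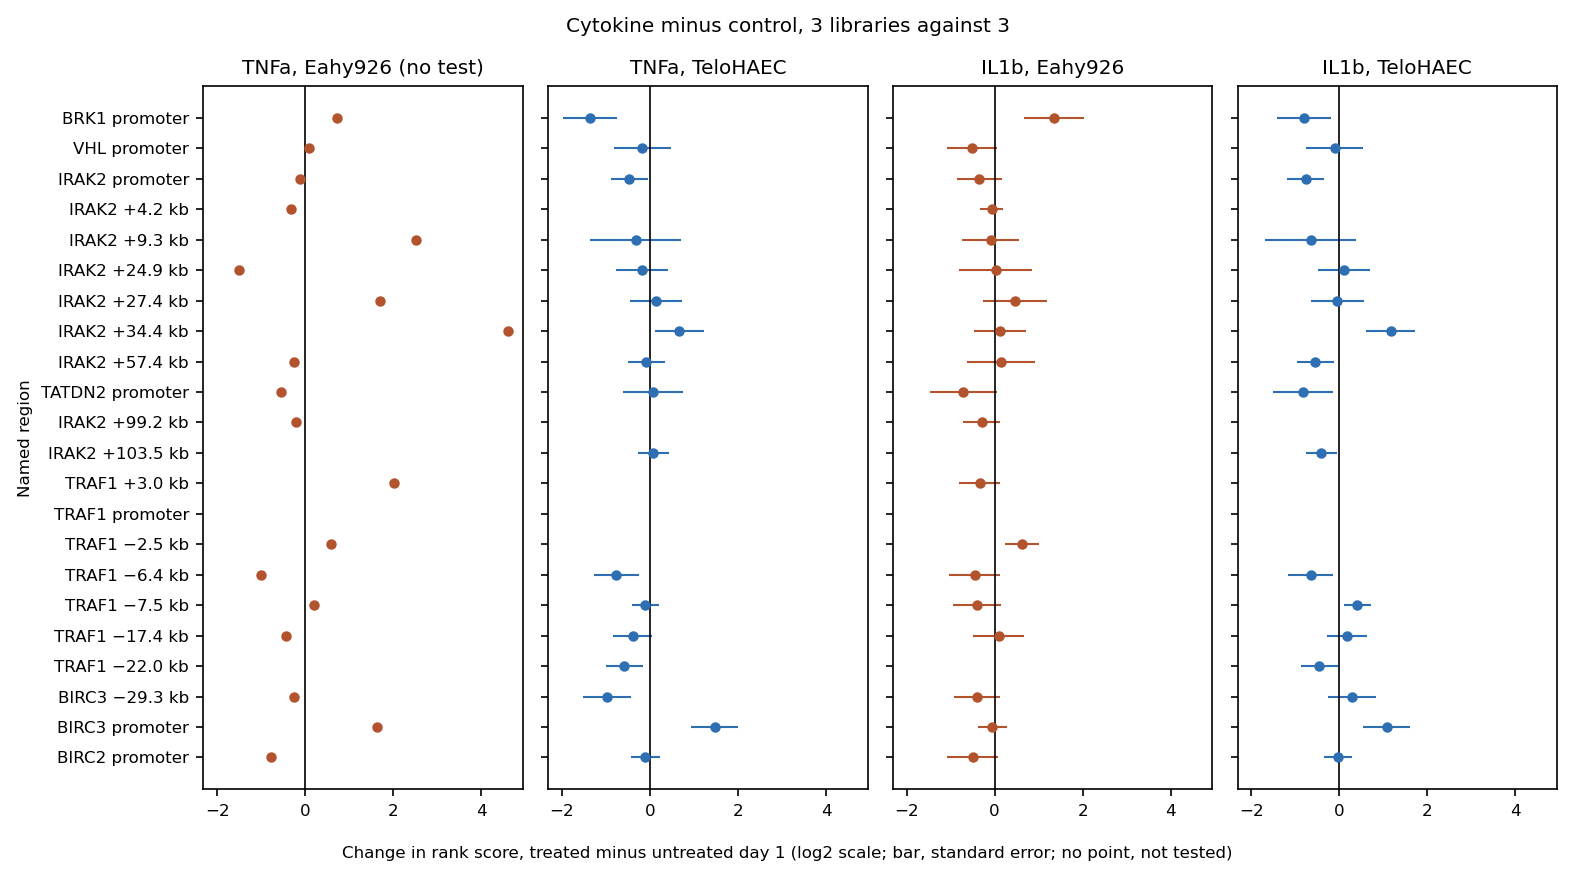
Change in rank score (x axis, log2 scale, treated minus day-1 control, 3 libraries against 3; bars are standard errors, none drawn for TNFa in Eahy926, which was not tested) at the 22 named regions; a missing point had too few strong peaks. IRAK2 +34.4 kb has the largest value, 4.61, in TNFa-treated Eahy926, and no tested change in the other 3 panels passed the threshold.

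Over all regions with enough strong peaks, the 3 TNFa libraries of Eahy926 stood above the 3 day-1 controls at 7 of 33 in these windows, against 6.07% of the 56650 regions of the genome. Since that contrast was used to choose the loci, nothing is read from the count. The 7 were IRAK2 +9.3, +27.4, +28.3, +34.4 and +122.3 kb, TRAF1 +3.0 kb and the BIRC3 promoter. The median difference over the 33 was 0.00, against −0.03 over all regions, with 17 above 0 and 16 below.

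No region of these windows was called in any tested treatment contrast at an adjusted p of 0.05 (limma). With IL1b in TeloHAEC 0 of 29 were called, where 0.334% of 58694 regions were. The count at an unadjusted p under 0.05 was 1 of 29, the element IRAK2 +34.4 kb, beside 9.92% of all regions. With TNFa in TeloHAEC 0 of 29 were called (all regions 0.00341%) and 2 had an unadjusted p under 0.05 (all regions 7.76%). These were the BIRC3 promoter and the promoter of BRK1, a neighbour of IRAK2, which changed by −1.37 ± 0.61 (SE, adjusted p = 0.611).

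Withholding VEGF from TeloHAEC gave 0 of 29 calls (all regions 0%), with 1 unadjusted p under 0.05 at the promoter of VHL, another neighbour (1.57 ± 0.64, SE, limma, adjusted p = 0.974). IL1b in Eahy926 gave 0 of 33 (all regions 0.00353%) and added VEGF 0 of 33 (all regions 0%), each with 1 unadjusted p under 0.05. For IL1b that region was BIRC3 −4.1 kb, at 29156, 26717 and 40886 against 42450 and 44799, and 55079 in the full list of control library 3 (0.52 ± 0.26, SE, limma, adjusted p = 1.0). A peak over BIRC3 −4.1 kb was absent from all 15 TeloHAEC full lists and present in 11 of 15 from Eahy926.

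IL1b and TNFa were also compared directly in TeloHAEC, without the shared controls, and 0 of 29 regions were called (all regions 0.104%). The 2 with an unadjusted p under 0.05 were IRAK2 +63.9 kb, lower with IL1b by −2.43 ± 0.83 (SE, limma, adjusted p = 0.411), and BIRC3 −29.3 kb, higher by 1.27 ± 0.54 (adjusted p = 0.593). The IL1b response differed between lines at 0 of 37 regions (all regions 0.258%), with an unadjusted p under 0.05 at 2, the BRK1 promoter and BIRC3 −4.1 kb. A missed threshold with 3 libraries against 3 does not show that these elements were equal.

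The lines themselves differed. Among untreated libraries, 9 of the 30 regions tested were called between TeloHAEC and Eahy926, 7 lower and 2 higher in TeloHAEC (limma with day as a covariate, 6 libraries against 6). Over all 64280 regions tested the share called was 37.7%, with 18.1% lower and 19.6% higher in TeloHAEC, so the members' share was no higher than the background. Their median change was −0.42, against −0.08 over all regions. Ordering peaks by fold enrichment instead of p-value turned the split into 4 lower and 4 higher.

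Several called regions were found in 1 line only. The region IRAK2 +4.2 kb, just inside the gene, had a peak in 15 of 15 Eahy926 full lists and in 0 of 15 from TeloHAEC, and changed by −0.60 ± 0.16 (SE, adjusted p = 0.0076). TRAF1 −22.0 kb had one in 0 of 15 Eahy926 and 15 of 15 TeloHAEC full lists (0.64 ± 0.19, adjusted p = 0.0137). IRAK2 +103.5 kb showed the same 0 and 15 (0.36 ± 0.13, adjusted p = 0.0330). These 3 regions passed the filter through 1 line alone and scored 0 in every library of the other. The direction of change was thus fixed, and the p-values add no support to the counts of libraries. The share of such regions over the genome was not computed.

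Other called regions had peaks in full lists of both lines, at different standing. IRAK2 +57.4 kb held places 8254, 2365 and 6921 in Eahy926 day-1 controls and 26246, 23020 and 23033 in those of TeloHAEC, with no overlap, and the change over both days was −1.82 ± 0.35 (SE, limma, adjusted p = 0.000762). IRAK2 +24.9 kb was at 3710, 1279 and 2629 against 17425, 15684 and 22624 (−2.02 ± 0.43, adjusted p = 0.0016). IRAK2 +99.2 kb changed by −0.74 ± 0.19 (adjusted p = 0.0056), TRAF1 −17.4 kb by −0.96 ± 0.26 (adjusted p = 0.0085) and TRAF1 −7.5 kb by −0.92 ± 0.34 (adjusted p = 0.0379). These also stood lower in TeloHAEC. IRAK2 +99.2 kb had a peak in 13 Eahy926 and 4 TeloHAEC full lists, but scored 0 in every TeloHAEC library. It passed the filter through Eahy926 alone, so its direction of change was fixed and its p-value adds no support.

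At the promoter of TATDN2, the gene downstream of IRAK2, the change was −2.28 ± 0.70 (adjusted p = 0.0160). The promoters of IRAK2 (−0.48 ± 0.34, SE, limma, adjusted p = 0.259) and BIRC2 (−0.70 ± 0.39, adjusted p = 0.156) did not pass. Just short of the threshold were the BIRC3 promoter (0.72 ± 0.29, adjusted p = 0.0558) and IRAK2 +9.3 kb (1.38 ± 0.54, adjusted p = 0.0511), both higher in TeloHAEC.

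**Figure D4:**
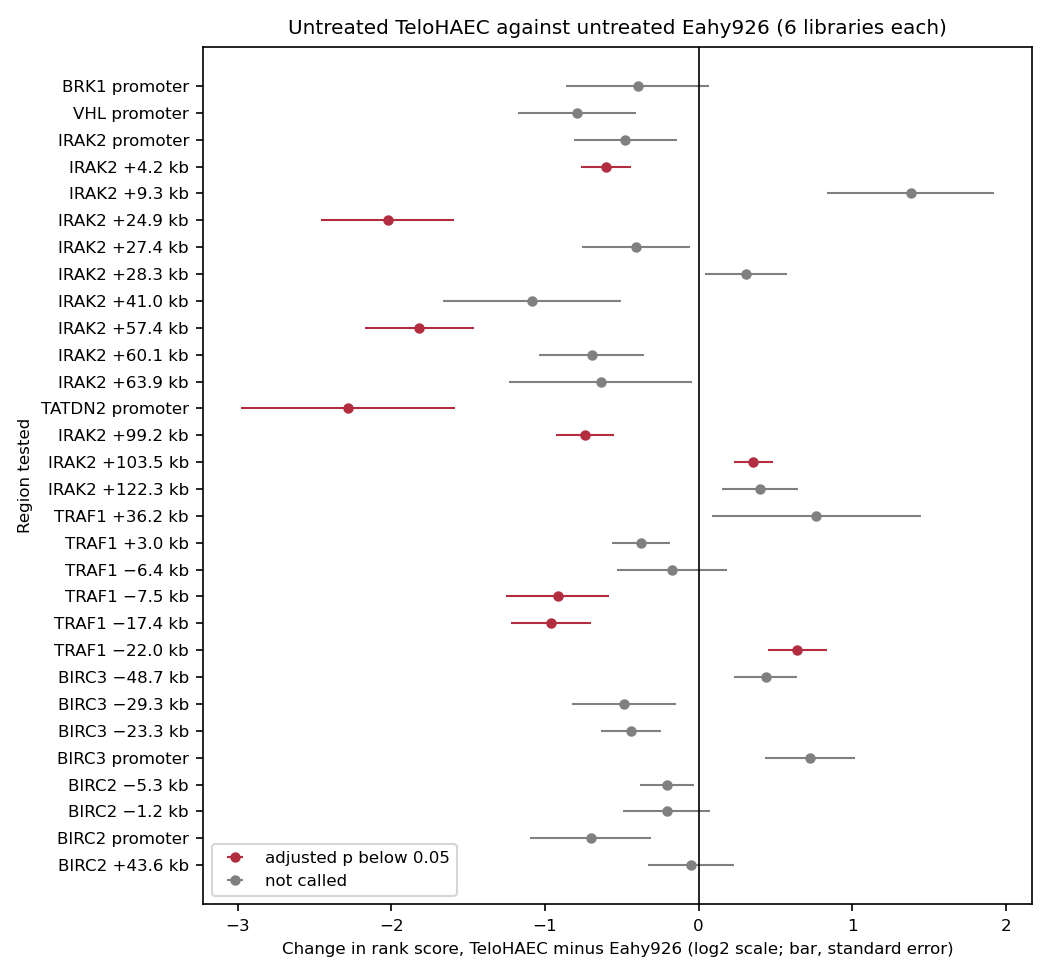
Change in rank score between untreated lines (x axis, TeloHAEC minus Eahy926, log2 scale; bars are standard errors; 6 libraries each) at the 30 regions tested (y axis). The 9 called regions are red, 7 left of 0 and 2 right of it, and none of them is the promoter of IRAK2, BIRC3 or BIRC2. The TRAF1 promoter had too few strong peaks to be tested and is not shown.

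Untreated libraries of the 2 days were also set side by side, at regions with a strong peak in at least 3 of the 6. In TeloHAEC all 3 day-0 libraries stood above all 3 day-1 libraries at 9 of 25 regions in the windows (17.8% of all 47563 regions) and below them at 4 (16.8%). In Eahy926 they stood above at 3 of 27 (21.1% of all 46716 regions) and below at 7 (18.2%). Such separation was thus common across the genome. Among the regions above were the promoters of VHL, IRAK2, TATDN2, BIRC3 and BIRC2 in TeloHAEC and those of BRK1 and IRAK2 in Eahy926. The share among all promoters was not computed here. The IRAK2 promoter held places 9077, 5573 and 4607 in Eahy926 on day 0 against 28735, 26839 and 29495 on day 1. In TeloHAEC it held 16146, 8848 and 13295 against 34662, 29144 and 20083. The BIRC2 promoter in TeloHAEC went from places 5857, 13929 and 7177 on day 0 to 39398, 42534 and 32833 on day 1. None of the regions below was a promoter. IRAK2 +41.0 kb in Eahy926 held 14760, 13475 and 7033 on day 0 against 872, 837 and 1178 on day 1. Day-0 libraries had 30-base tags and day-1 libraries 40-base tags, so day and tag length cannot be told apart. These counts were made after the values were seen, and no test was made.

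The elements with the largest TNFa rise in each window were set beside 389 regions near genes of the pathway and marker lists, over the 30 libraries. As a description, IRAK2 +34.4 kb was most alike to a region near TNIP1, an inhibitor of NF-kB signalling, at chr5:150465161-150465661 (Pearson r = 0.848). A region near TRAF2 followed (r = 0.797), and then 1 near TNFAIP3, which encodes the deubiquitinase A20 (r = 0.786). TRAF1 +3.0 kb was most alike to the same TNIP1 region (r = 0.824), then to a region near TEK, an endothelial receptor gene of the marker list (r = 0.711), and 1 near CFLAR (r = 0.619). The BIRC3 promoter was most alike to a different TNFAIP3 region (r = 0.610), followed closely by a region near VWF, also of the marker list (r = 0.595), and 1 near TRAF2 (r = 0.560). All points share libraries, depth and the 3 Eahy926 TNFa libraries. The elements were picked by their TNFa rise in Eahy926, and candidates came only from these lists, so nothing is read from which genes were found. Correlations with other regions of the genome were not computed.

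The rest of the pathway was read from 30 genes for other adaptors, kinases, ligases and inhibitors of IL1 and TNF signalling, in regions within 50 kb of a start. Between untreated lines 15 of 160 regions, at 9 genes, were called higher in TeloHAEC and 38, at 15 genes, lower, with a median of −0.33 against −0.08 over all regions. Together 33.1% of the pathway regions were called, beside 37.7% of all regions, of which 19.6% were higher and 18.1% lower. The lowest in TeloHAEC was a region near RBCK1, a subunit of the linear ubiquitin ligase, at −5.18 ± 0.52 (SE, limma, adjusted p = 2.2e-06). Near IRAK3, an inhibitory relative of IRAK2, it was −4.22 ± 0.68 (adjusted p = 0.000142), and near MYD88, the receptor adaptor that recruits IRAK proteins, −3.80 ± 0.91 (adjusted p = 0.0036). These regions lay +23.6, −19.5 and −1.2 kb from the starts of RBCK1, IRAK3 and MYD88. Which genes they serve was not tested. Near NFKBIA, which encodes the inhibitor IkBa, 1 region was higher in TeloHAEC by 1.49 ± 0.25 (SE, adjusted p = 0.000192) and 3 others were lower.

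With IL1b in TeloHAEC 1 of 139 pathway regions was called (all regions 0.334%), 20.2 kb downstream of the NFKBIA start. It rose by 4.43 ± 0.95 (SE, limma, adjusted p = 0.0342). With normal scores, another scale of the score, 0 of 58694 regions were called in this contrast, so that call was lost. Leaving out 1 day-1 control left 10 to 25 calls over all regions, against 196. In TeloHAEC with TNFa 0 of 139 were called, and 10 had an unadjusted p under 0.05 (all regions 7.76%). The smallest p-values there were near TRAF3, an adaptor that restrains NF-kB (1.78 ± 0.60, adjusted p = 0.519), TRAF5 (−0.67 ± 0.25, adjusted p = 0.538) and the kinase gene MAP3K8 (1.67 ± 0.62, adjusted p = 0.538). In Eahy926 0 of 155 were called with IL1b and 0 with added VEGF, and 6 in each had an unadjusted p under 0.05 (all regions 4.2% and 5.08%). The median changes over the pathway regions with IL1b and TNFa in TeloHAEC were 0.02 and 0.00, close to the −0.02 and 0.00 of all regions.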

How the data were processed

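The authors deposited 1 MACS2 peak list per library, never pooled. Reads were aligned with Bowtie2 to hg19, per the submitters' processing notes. Per the file headers, MACS2 2.1.1.20160309 ran on single-end tags without a control library, kept 1 tag per position and used a p-value threshold of 0.001. The deposited columns are pileup (signal, in reads at the summit), −log10 p-value, fold enrichment (a ratio) and −log10 q-value. The fragment length that MACS2 estimated ran from 91 to 169 bases between libraries, which alters peak width and pileup. No Tn5 shift is given in the sources used here.

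Peaks on the 22 autosomes were ordered by −log10 p-value, and lists were shortened to 49774. Regions of 501 bp were built from the 45000 strongest peaks of each library. A peak counted over a region when their overlap was at least 50%. Rank scores were tested with limma 3.58.1 in R 4.3.3 (trend, two-sided). P-values were adjusted by Benjamini-Hochberg over all regions with a strong peak in at least 3 libraries of the fit, at a threshold of 0.05. The fit was also run on simulated normal noise with planted changes. That noise had no floor at 0 as real scores do, so it does not show how the test behaves where many libraries score 0. Treated and control groups of a line shared 1 estimate of spread. These values are not read counts, and no count test was used.

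Kept tags ran from 3577273 to 11404955 per library, so weak peaks are missed more often in shallow ones. Gene starts in hg19 were written from general knowledge. All 61 were on the chromosome that RefSeq gives, 44 of 44 neighbouring pairs were in the same order, and 10 spacings differed by at most 1062 bp. Sequences are from RefSeq's promoter table (GRCh38.p14), where all 4 member genes matched.

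Regions named in full were the promoters of the member genes and of their neighbours, every region called in a test, and per window the 3 with the largest change with TNFa in Eahy926. The loci, gene lists and this rule were chosen with earlier results of these data known. Alternatives were list length, overlap, peak order, scale of the score, region filter, a replicate block, only the groups compared, and leaving out each library.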

Additional observations from a re-analysis of the deposited data

How the results depend on the processing

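Between untreated lines the number of called regions, 9, was 6 with only the 25000 strongest peaks or 80% overlap, 9 with any overlap, 8 with order by fold enrichment, 11 with normal scores, 8 without the filter, and 7 to 12 with 1 library left out. The 6 calls at IRAK2 +4.2, +24.9, +57.4 and +99.2 kb, TRAF1 −22.0 kb and, except with 80% overlap, TRAF1 −17.4 kb held in every alternative that tested them. Among them, IRAK2 +4.2 and +99.2 kb and TRAF1 −22.0 kb passed the filter through 1 line alone. The TATDN2 promoter was lost with order by fold enrichment. TRAF1 −7.5 kb was lost in 11 of 19 alternatives, among them without Eahy926 day-0 library 1, Eahy926 day-1 library 2 or 3, TeloHAEC day-0 library 1 or any TeloHAEC day-1 library (adjusted p 0.0524 to 0.0895, limma). IRAK2 +103.5 kb was lost in 7 of 18, among them without TeloHAEC day-0 library 1, any Eahy926 day-1 library or TeloHAEC day-1 library 1 or 2 (adjusted p 0.0558 to 0.0667). The cause was not tested. The BIRC3 promoter was called between lines in 5 alternatives, for example at an adjusted p of 0.0294 (limma) with the 25000 strongest peaks. IRAK2 +9.3 kb was called in 3 and TRAF1 +3.0 kb in 2. Every tested treatment contrast kept 0 calls in these windows under every alternative run, including leaving out each library. The described TNFa count in Eahy926, 7, was 6 to 7 over the list, overlap and order alternatives and 7 to 9 with 1 library left out. With the replicate number as a block, the line comparison called 7 and the treatment contrasts 0. Equal numbers did not pair libraries: the median correlation of their deviations was −0.01 in TeloHAEC and 0.00 in Eahy926 over 18 pairs each, and 0 exceeded 0.1. Depth limits weak elements: the shortest list ended at 49774 peaks, so a weak peak absent there does not show that the region was closed.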
